A study of Homo sapiens with 4 samples.

Results

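The elements described here are p53 response elements (REs) listed to genes that regulate transcription. They were taken from the study's list of 20-bp REs by 1 criterion, a biological function label that begins with regulation of transcription in any spelling, and 69 of the 1356 listed REs carried it. The 69 REs were listed to 65 genes on 22 chromosomes, and ATF3, EPAS1, FOXB1 and LHX8 each had 2. The list was built from sites bound by wild-type (WT) p53, so binding of WT p53 to these REs describes the list and is not a finding. The label was given to genes by the study and was not drawn from the peaks. It also sat on 4 genes of another kind (LGALS7, a galectin, ERN2, an endoplasmic reticulum stress sensor, SNHG16, a noncoding host gene of small nucleolar RNAs, and MIR3692, a microRNA).

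The study asked which p53 sites in the genome still bind p53 when lysine 120 is changed to arginine (K120R). It used H1299, a human lung cancer cell line without endogenous p53, in which a stably expressed Tet repressor controlled a WT or a K120R p53 vector and tetracycline (Tet) induced it. Chromatin was immunoprecipitated with an antibody to p53 in 4 conditions: WT untreated, WT treated with Tet for 24 h, K120R untreated and K120R treated with Tet for 24 h. The labels give the Tet dose as 1 µg/µl, while the methods write µg/ml, and the cells of all 4 conditions carried the Tet repressor. Each condition was 1 library, so there is no replicate error, no difference between conditions was tested, and the intervals below cover counting error only. A peak list cannot show which cell type was used, so the label H1299 was not checked.

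The libraries held 33059650 to 34857204 ChIP tags. The 4 lists held 488 peaks (WT untreated), 4326 (WT with Tet), 12 (K120R untreated) and 2023 (K120R with Tet). Fragment lengths estimated by the peak caller were 170 bp in WT cells with Tet and 64 to 68 bp in the other 3 libraries. Heights of peaks were for this reason set against others of the same list only, and between lists the presence of a peak over an RE was compared. The part of fragment length in the difference between lists was not tested.

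p53 is a transcription factor that binds DNA as a tetramer and is stabilised after DNA damage and other stress. Its RE is built from a pair of 10-bp half-sites, each with a CWWG core (W is A or T) between purines and pyrimidines. Lysine 120 lies in the loop of the DNA-binding domain that enters the major groove, and it can be acetylated. Genes for transcription factors and cofactors among p53 targets can pass a p53 signal on to genes without an RE of their own. Among those listed here, ATF3 is a stress-induced factor, E2F7 is a repressor of cell cycle genes, and MED13 belongs to the kinase module of Mediator.

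The following sequences carry the comparisons below and are given 5′ to 3′ as listed. Each matched GRCh37 at its coordinates, on the strand named beside it. Capitals mark positions 3, 8, 13 and 18, counted from 1 at the 5′ end, where the study counted G/C base pairs (bp). The first set holds the 2 REs with the strongest WT peaks, then 3 REs with no G/C bp at these positions and a K120R peak.
IRF2BP2 (chr1:234754327-234754346, minus strand): agGcatgTcctgAcatgTtt
ATF3 (2) (chr1:212769905-212769924, minus strand): ttAcatgTcctgAcatgTag
TBX18 (chr6:85546131-85546150, plus strand): agAcatgTctggTcatgTat
MTERF (chr7:91235323-91235342, plus strand): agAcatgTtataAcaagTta
IRF2BPL (chr14:77425796-77425815, plus strand): agAcatgTccatTtctgTcc

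The second set holds 4 REs with G/C bp at all 4 positions, none of which had a K120R peak.
LHX8 (1) (chr1:75557953-75557972, plus strand): ggGcatgCccagGcaagCca
EPAS1 (2) (chr2:46399622-46399641, minus strand): agGcacgCccagGcccgCcc
TBX2 (chr17:59362211-59362230, plus strand): agGcatgGcaggGcataGca
ZNF595 (chr4:16509-16528, minus strand): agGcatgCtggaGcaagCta

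The third set holds REs that differ from one another by 1 or 2 bases and that differed in K120R peaks.
ESR1 (chr6:152543120-152543139, minus strand): ggAcatgTctggGcaagTca
MED13 (chr17:60221507-60221526, minus strand): ggGcatgTctggGcaagTca
MSANTD1 (chr4:3193943-3193962, plus strand): agGcatgTaccaAcatgCct
NR1I2 (chr3:119512998-119513017, plus strand): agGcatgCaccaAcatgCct
WT1 (chr11:32325332-32325351, plus strand): ggGcatgTtagcAcatgCct
LHX8 (2) (chr1:75837739-75837758, plus strand): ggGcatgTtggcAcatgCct
TFAP4 (chr16:4351876-4351895, minus strand): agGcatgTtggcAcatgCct

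After Tet, 68 of the 69 REs lay under a WT peak, beside 98.4% of all listed REs. The exception was the RE listed to ZNF595, a zinc finger gene, which had no peak in any of the 4 lists. Of the 68 REs, 30 also lay under a K120R peak after Tet (44.1%, exact 95% interval 32.1 to 56.7), beside a background of 40.6% of all listed REs with a WT peak. The share is near the background, and its interval covers it. With a −log10 q-value of at least 10 in both lists, 16 of 64 REs had a K120R peak (25.0%, 15 to 37.4), beside 23.9% of the list. In untreated WT cells 15 of the 68 had a peak (22.1%, 12.9 to 33.8, background 23.8%), and with a −log10 q-value of at least 10 it was 7 of 64 (10.9%, list 12.8%). In untreated K120R cells none of the 69 had a peak, and 0.0737% of all listed REs did, in a list of 12 peaks.

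**Figure D1:**
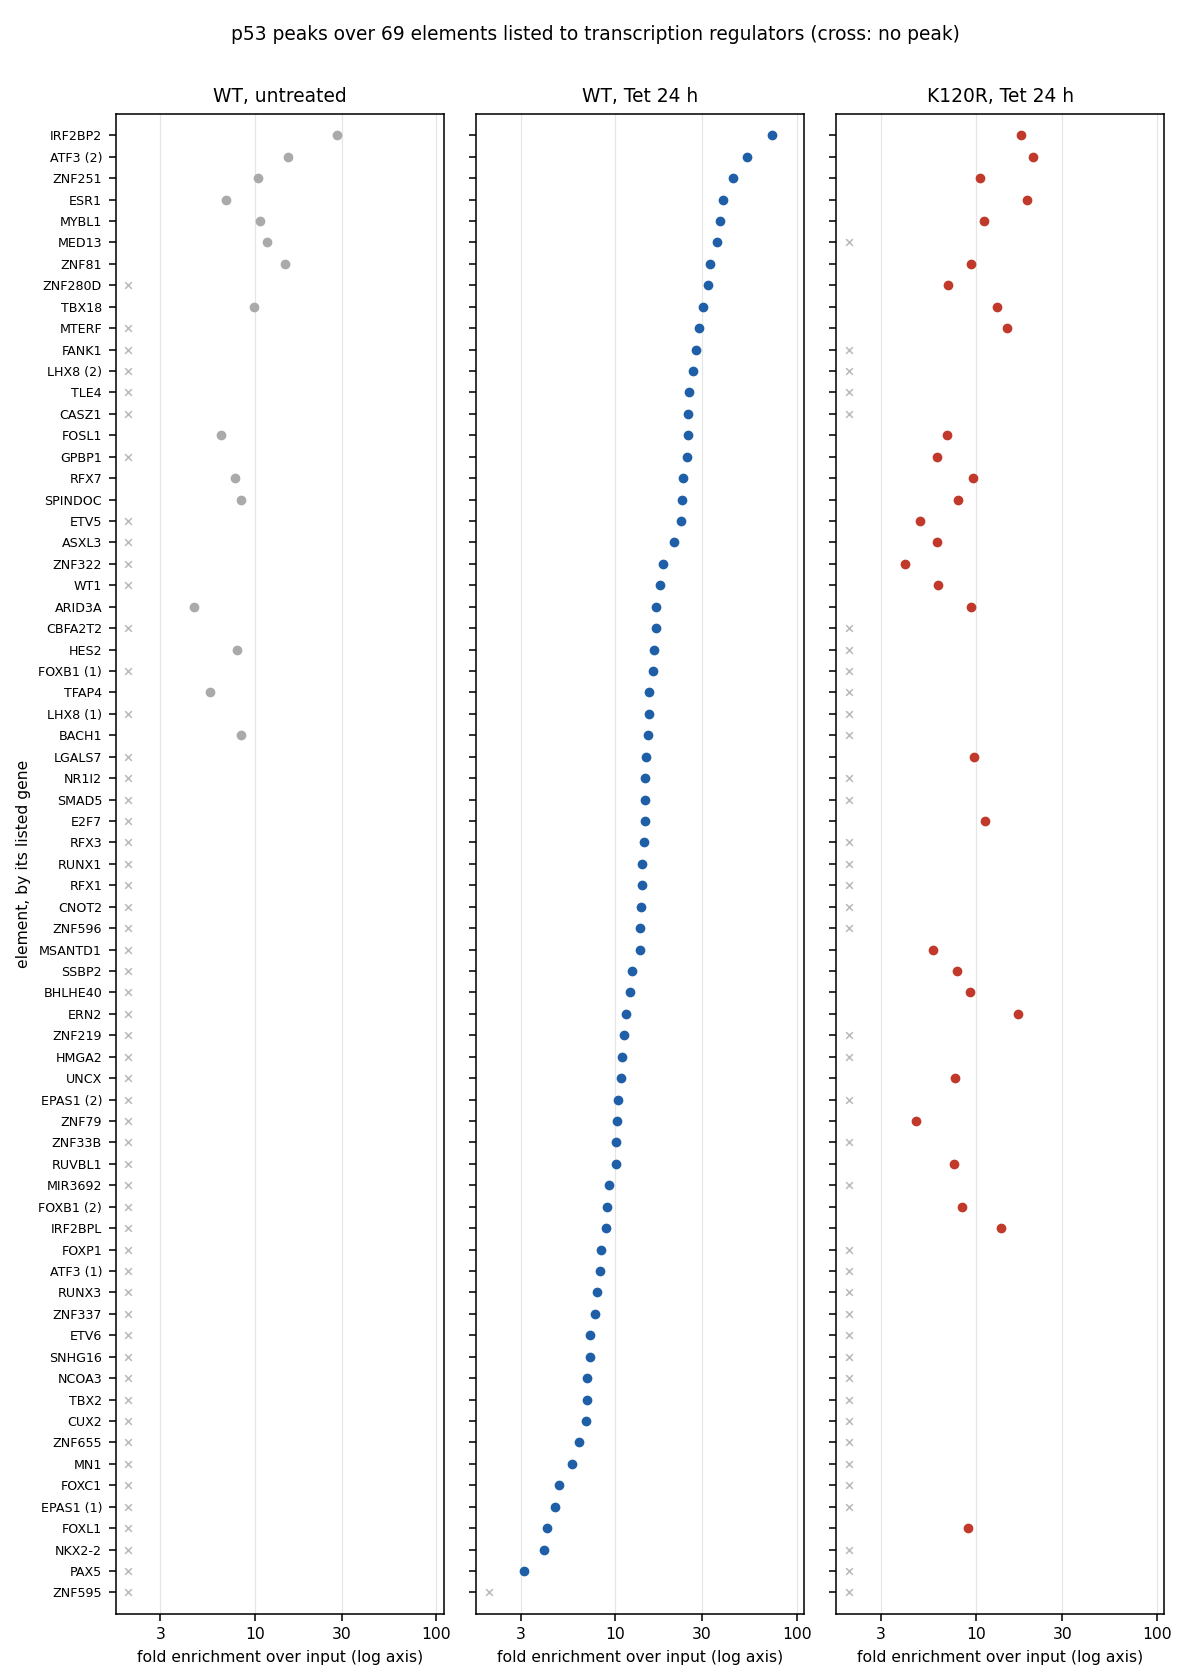
Fold enrichment over input (log axis) of the p53 peak over each of the 69 REs in untreated WT cells, WT cells with Tet and K120R cells with Tet, 1 library each, ordered by the WT value with Tet. A cross marks an RE without a peak, and all 69 REs lacked one in untreated K120R cells, which are not drawn. WT values run from 3.12 to 73.5. K120R peaks lie over 20 of the 37 REs above the list's median WT value of 13.7 and over 10 of the 31 at or below it, beside 55.1% and 26.0% of all listed REs (54.1% and 32.3% here).

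WT peaks over the REs varied over a wide range. Fold enrichment, the height of the peak over the local background estimated from input DNA, had a median of 14.2 (quartiles 8.96 and 23.4) over the 68 REs and of 13.7 (9.21 and 21.9) over all listed REs. The strongest was over the RE of IRF2BP2, a corepressor, with 28.3 in untreated WT cells, 73.5 in WT cells with Tet and 17.8 in K120R cells with Tet. Its peak ranked 6 of 4326 in the WT list and 61 of 2023 in the K120R list. It lay between genes, 8412 bp from the start of IRF2BP2.

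The second strongest was the ATF3 (2) RE, in an intron of ATF3. It had 15.1 in untreated WT cells, 53.1 in WT cells with Tet and 20.6 in K120R cells with Tet, the highest K120R value of the 69. The other ATF3 RE lay upstream of the gene, 62377 bp from its start, and had 8.20 in WT cells with Tet and no other peak. The 2 REs of this gene thus lay far apart in the order of WT peaks, at ranks 37 and 1991 of the list.

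The RE of ESR1, the estrogen receptor alpha gene, had 6.90 in untreated WT cells, 39.1 in WT cells with Tet and 19.2 in K120R cells with Tet. It lay in an intron of SYNE1, 277822 bp from the nearest annotated start of ESR1. The RE of ZNF251, a zinc finger gene, had 10.4, 44.5 and 10.6 in the same order. That of MYBL1, a MYB family factor, lay in an intron of the gene and had 10.7, 38.0 and 11.1. That of ZNF81 had 14.6, 33.1 and 9.38, and that of the T-box gene TBX18 had 9.84, 30.3 and 13.1. All 5 had peaks in the same 3 lists.

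Other REs near the top lacked 1 or more of these peaks. The RE of MED13 had 11.7 in untreated WT cells and 36.3 in WT cells with Tet, and no K120R peak. It was the strongest WT peak among the 38 REs without a K120R peak. It was followed by FANK1 (27.7), LHX8 (2) (26.9), TLE4, a Groucho family corepressor (25.5), and CASZ1, a zinc finger factor (25.3), none with a peak in untreated cells. The REs of ZNF280D (32.5 WT, 6.99 K120R) and MTERF, a mitochondrial transcription termination factor (29.0 WT, 14.9 K120R), had peaks with Tet in both lines and none without Tet.

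In untreated WT cells the 15 peaks ranged from 4.60, at ARID3A, to 28.3, at IRF2BP2. Besides those named above they lay over the REs of BACH1, a heme-regulated repressor (8.32), SPINDOC (8.31), HES2, a bHLH repressor (7.96), RFX7 (7.76), FOSL1, an AP-1 subunit (6.52), and TFAP4 (5.61). Of these 15 REs, 11 had a K120R peak with Tet (73.3%, 44.9 to 92.2). Of the 53 without a peak in untreated WT cells, 19 had one (35.8%, 23.1 to 50.2). Over all listed REs the 2 shares were 65.4% and 32.8%. With a −log10 q-value of at least 10 the counts were 6 of 7 and 10 of 57, beside 64.2% and 17.9% of the list. The REs with an untreated WT peak also had the higher WT values with Tet, with a median of 30.3 against 11.4. Over all listed REs the medians were 28.8 and 11.4.

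REs with a K120R peak had stronger WT peaks at the median. The median WT fold enrichment was 19.7 (quartiles 12.1 and 29.9) at the 30 with a K120R peak and 11.0 (7.19 and 15.2) at the 38 without, a ratio of 1.78, and the same ratio over all listed REs was 1.78. Across the alternative settings the ratio at the transcription regulators ran from 1.25 (peaks covering the whole RE) to 2.12 (pileup). Over the 53 REs without a peak in untreated WT cells it was 1.35. The quartile ranges given above overlapped, and each group held both strong and weak WT peaks. K120R values themselves ran from 4.07, at ZNF322, to 20.6, with a median of 9.14.

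Ranks within each list are given side by side here. The lists differ in size and fragment length, so a rank in one was not tested against a rank in the other. Over the 30 REs with both peaks, the rank correlation of the 2 fold enrichments was 0.34, a description over REs that share both libraries, and over all 541 such listed REs it was 0.44. The RE of ERN2 ranked 1227 in the WT list (fold enrichment 11.4) and 69 in the K120R list (17.1). It lay in an untranslated exon of ERN2, and the summits of its peaks were 132 bp (WT) and 206 bp (K120R) from its centre, so those peaks were not centred on the RE. The RE of IRF2BPL, a gene related to IRF2BP2, ranked 1784 (8.86) and 143 (13.8), with summits 18.5 and 24.5 bp away. The RE of FOXL1, a forkhead gene, ranked 3925 (4.20) and 486 (9.00). The RE of ZNF322 ranked 551 of 4326 in the WT list (18.3) and 1935 of 2023 in the K120R list (4.07). That of ETV5, an ETS factor, ranked 346 (22.9) and 1738 (4.92).

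**Figure D2:**
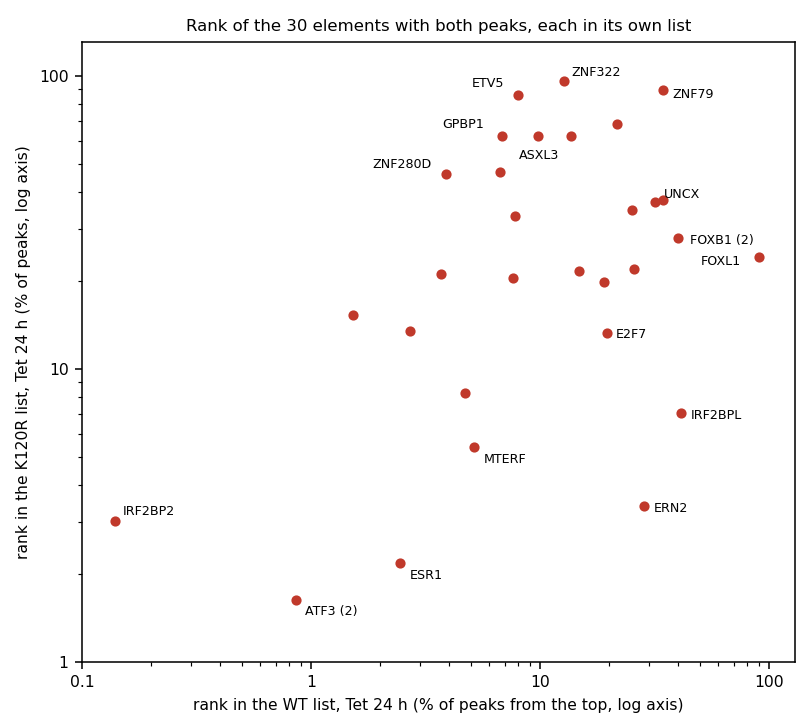
Rank of the peak over each of the 30 REs with both peaks, as a percentage of its own list from the top, in WT cells with Tet (horizontal, log axis) and in K120R cells with Tet (vertical, log axis). ATF3 (2) and ESR1 are near the top of both lists (ranks 37 and 33, and 106 and 44), while ERN2 ranks 1227 in the WT list and 69 in the K120R list.

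The study's sequence measure, the number of G/C bp at positions 3, 8, 13 and 18, was then read against the peaks. The study picked these positions by comparing REs of its list with and without K120R binding in the same experiment. A relation of the G/C count to K120R peaks among REs of that list is therefore no independent test. The count had a mean of 1.82 over the 68 REs and 1.82 over all listed REs with a WT peak. The mean was 1.40 at the 30 REs with a K120R peak and 2.16 at the 38 without, a difference of 0.758. With 0 G/C bp, 8 of 11 REs had a K120R peak (72.7%, 39.0 to 94.0). With 1 the count was 6 of 13 (46.2%), with 2 it was 12 of 25 (48.0%), with 3 it was 4 of 15 (26.7%), and with 4 it was 0 of 4 (upper bound 60.2%). Over all listed REs the shares for 0 to 4 G/C bp were 77.6%, 55.7%, 34.3%, 18.3% and 14.3%. The fall from 1 to 2 G/C bp in the list was thus not seen in these REs. Pooled, REs with 0 or 1 G/C bp had a K120R peak in 14 of 24 cases (58.3%, 36.6 to 77.9) and REs with 3 or 4 in 4 of 19 (21.1%, 6.05 to 45.6). These 2 intervals overlapped. Over all listed REs the shares were 62.5% and 17.6%. With a −log10 q-value of at least 10 the shares of the transcription regulators were 40.9% and 11.1%, beside 38.3% and 8.51% of the list at that threshold.

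**Figure D3:**
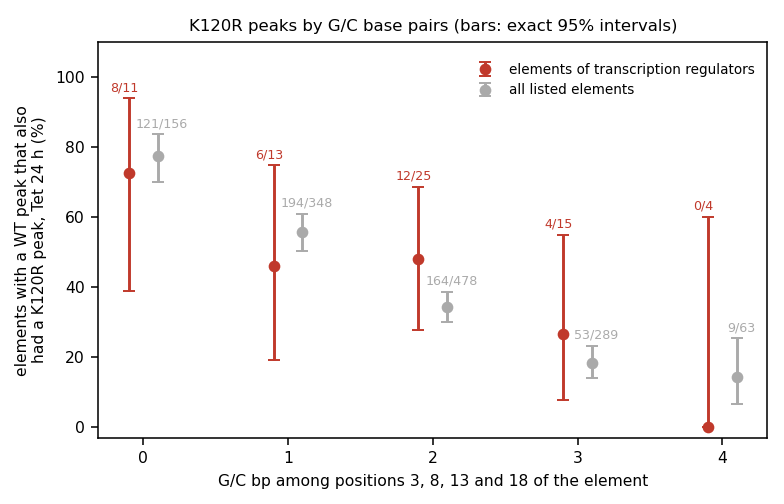
Share of REs with a WT peak that also had a K120R peak after Tet (vertical, %) by the number of G/C bp at positions 3, 8, 13 and 18 (horizontal), for REs of transcription regulators and for all listed REs. Bars are exact 95% intervals and the numbers give REs with a K120R peak over all REs. The share in transcription regulators is 72.7% at 0 G/C bp and 0 of 4 at 4 G/C bp, with wide intervals.

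The 8 REs with no G/C bp and a K120R peak were those of ATF3 (2), TBX18, MTERF, RFX7, ETV5, SSBP2, FOXB1 (2) and IRF2BPL. SSBP2, a single-stranded DNA-binding protein gene, had 12.3 in WT and 7.86 in K120R cells, and FOXB1 (2) had 9.00 and 8.44. The other 3 REs with no G/C bp had WT peaks alone, RFX1 at 14.1, CUX2 at 6.90 and ZNF655 at 6.26. At the other end, LHX8 (1) had a WT value of 15.3, ZNF596 of 13.7, EPAS1 (2) of 10.3 and TBX2 of 6.95, and no other peaks. ZNF595, the RE without any peak, also had 4 G/C bp.

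The G/C count and the strength of the WT peak were then read together, by splitting the REs at the median WT fold enrichment of the list, 13.7. Above it, 10 of 11 REs with 0 or 1 G/C bp had a K120R peak (90.9%, 58.7 to 99.8). The figures were 9 of 17 with 2 and 1 of 9 with 3 or 4 (11.1%, 0.281 to 48.2). The intervals of the outer classes did not overlap, but REs of 1 library per condition are not replicates, and the difference was not tested. In these 2 classes the K120R peaks of ZNF280D, ETV5 and FOSL1 were lost at a −log10 q-value of at least 10. RFX1 was the RE of the first class without a K120R peak, and FOSL1 was that of the last class with one (WT 25.2, K120R 6.95). At or below the median the counts were 4 of 13, 3 of 8 and 3 of 10, and their intervals overlapped. The last 3 were ERN2, UNCX and RUVBL1. Over all listed REs the shares were 81.3%, 46.4% and 26.4% above the median and 42.9%, 21.1% and 10.4% at or below it.

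By position, REs with no G/C bp at the outer positions 3 and 18 had a K120R peak in 13 of 19 cases (68.4%, 43.4 to 87.4). With 1 or 2 G/C bp there the counts were 11 of 32 and 6 of 17. At the inner positions 8 and 13 the counts for 0, 1 and 2 G/C bp were 14 of 26, 13 of 26 and 3 of 16 (18.8%, 4.05 to 45.6). Over all listed REs the shares for 0, 1 and 2 G/C bp were 58.2%, 38.2% and 22.9% at the outer positions and 60.5%, 34.3% and 22.3% at the inner ones. Among these 6 classes, each interval of the transcription regulators covered the list's share. Of the bases at the 4 positions, 35.0% were G or C in REs with a K120R peak and 53.9% in REs without. Over all listed REs these were 33.1% and 53.8%.

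Other sequence features were close to those of the list. The core was CATG in 79 of 138 half-sites of the REs (57.2%, 55.0% over the list), and CAAG or its complement in 33 (23.9%, 24.1% over the list). Against the consensus the REs had a mean of 2.29 mismatches (2.12 over the list), and 6 had none. A K120R peak lay over 9 of 16 REs without a CATG core, 9 of 26 with 1 and 12 of 26 with 2 (56.2%, 34.6% and 46.2%), beside 42.4%, 33.3% and 50.7% of the list, each within the interval of the REs. The mean number of mismatches was 2.17 in REs with and 2.39 in REs without a K120R peak, and 2.11 and 2.13 over the list. The rank correlation of mismatches with WT fold enrichment was -0.25 over the 68 REs and -0.18 over all 1334 listed REs with a WT peak, a description over REs of 1 library.

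Some REs of different genes were nearly the same sequence. On either strand, 16 pairs formed by 13 of the REs differed by at most 2 bases. Of the 15 pairs with WT peaks at both REs, 9 had a K120R peak at 1 of the 2 (beside 36.3% of 4134 such pairs over the list). The pairs share REs, and MYBL1 alone entered 5 of the 15, so little can be read from that count. ESR1 and MED13 differed by A3G (ESR1 base, position, MED13 base). Their WT values were 39.1 and 36.3, both had a WT peak without Tet, and the K120R peak lay over ESR1 alone, at all 5 other settings of threshold, summit and overlap too. ZNF251 and ESR1 differed by 2 bases, both had 1 G/C bp at the counted positions, and both had a K120R peak (10.6 and 19.2).

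NR1I2, the pregnane X receptor gene, and MSANTD1 differed by C8T. Their WT values were 14.6 and 13.7, neither had a peak in untreated cells, and the K120R peak, at 5.82, lay over MSANTD1 alone, the RE with T at position 8. That peak ranked 1390 of 2023 in its list and was lost at a −log10 q-value of at least 5. In both of these pairs the RE with the additional G/C bp was the one without a K120R peak.

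Some REs that differed outside the 4 counted positions also differed in K120R peaks. LHX8 (2) and WT1, the Wilms tumour gene, differed by G10A. LHX8 (2) had the higher WT value (26.9, and 17.6 at WT1), and the K120R peak (6.15), lost at the same threshold, was over WT1. LHX8 (2) and TFAP4, a bHLH factor, differed by G1A, and neither had a K120R peak (WT 26.9 and 15.3). WT1 and TFAP4 differed by G1A and A10G. The reverse complement of MSANTD1 was 1 base from TFAP4 (C12T, counted on TFAP4), and 2 from LHX8 (2) (G1A and C12T, counted on LHX8 (2)). TFAP4 and NR1I2, also on opposite strands, differed by C12T and A13G, the latter at a counted position, and neither had a K120R peak. MYBL1 was within 2 bases of LHX8 (2), WT1, TFAP4, NR1I2 and MSANTD1. It had the strongest WT and K120R peaks of this group (38.0 and 11.1), and its sequence is not printed. FOXB1 (1) and MN1 differed by C19G and C20T, both had 3 G/C bp and no K120R peak, and their WT values were 16.2 and 5.73.

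Exact copies gave the same comparison with no base changed. The sequences of 10 of the REs occurred more than once in the list of 1356, as 9 distinct sequences. That of LHX8 (2) was listed 18 times. All 18 lay under a WT peak with Tet, with fold enrichments from 10.0 to 50.9 and a median of 20.3, 7 had a peak in untreated WT cells, and 1 had a K120R peak. That copy was listed to KDM4C, a histone demethylase gene (WT 50.9, K120R 7.74), and was the strongest WT peak of the 18.

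The sequence of MED13 was listed 11 times, with WT values from 10.9 to 43.9 and a median of 22.6. A peak in untreated WT cells lay over 8 of them and a K120R peak over 2, those listed to LINC00410 (WT 21.3, K120R 6.20) and RANBP3L (WT 22.6, K120R 9.05). MED13, with the second highest WT value of the 11, had none. Here the copies with K120R peaks were not those with the strongest WT peaks with Tet. In untreated WT cells, though, the copy at RANBP3L had the highest value of the 8 (15.2), and that at LINC00410 had 7.85.

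ZNF595 and ZNF596 had the same sequence, with 4 G/C bp, listed 5 times. ZNF596 had a WT peak of 13.7, ZNF595 had none, and the copy listed to CHAMP1 had the highest WT value (29.6) and the K120R peak (8.25). The sequence of NR1I2 occurred 3 times, and the copy listed to KRT18P55 had 6.52 in untreated WT, 43.6 in WT with Tet and 9.28 in K120R cells. That of MYBL1 occurred at DERL3 too, with K120R peaks over both (11.1 and 8.27). SPINDOC (7.98) and WT1 (6.15) each had a K120R peak where their second copy had none. The 5 copies of the TFAP4 sequence and the 3 of LHX8 (1) had WT peaks (9.21 to 15.3 and 8.97 to 15.3) and no K120R peak.

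**Figure D4:**
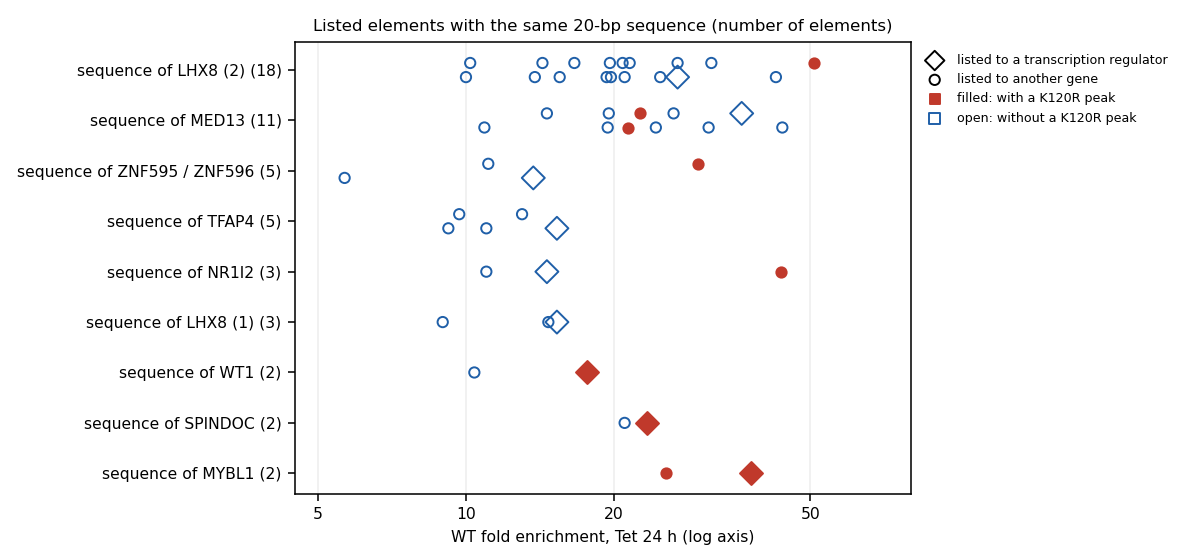
WT fold enrichment with Tet (log axis) of all listed REs that share the 20-bp sequence of an RE of a transcription regulator, 1 row per sequence with the number of REs in brackets (ZNF595, without a peak, is not drawn). Diamonds are REs of transcription regulators, circles REs of other genes, and filled symbols had a K120R peak. WT values within 1 sequence span 10.0 to 50.9 for LHX8 (2) and 10.9 to 43.9 for MED13, with 1 and 2 filled symbols.

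By protein family, numbers were small, and the exact 95% interval of the K120R share of every family covered the 40.6% of the list. Among the 13 REs of C2H2 zinc finger genes, 12 had a WT peak (6.26 to 44.5, median 15.6) and 6 a K120R peak (interval 21.1 to 78.9%), at WT1, ZNF79, ZNF81, ZNF251, ZNF280D and ZNF322. CASZ1, ZNF33B (10.1), ZNF219 (11.1), ZNF337 (7.71), ZNF596 and ZNF655 had WT peaks alone. Of the 10 cofactors, 4 had a K120R peak (40.0%, 12.2 to 73.8): IRF2BP2, IRF2BPL, ASXL3 (21.0 WT, 6.11 K120R) and the ATPase gene RUVBL1 (10.1 WT, 7.57 K120R). The other cofactors, with WT peaks from 5.73 to 36.3, were MED13, TLE4, CBFA2T2 (16.7), the CCR4-NOT subunit CNOT2 (13.8), the nuclear receptor coactivator NCOA3 (6.98) and MN1.

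The 5 forkhead REs had a median WT value of 8.28, from 4.20 at FOXL1 through 4.85 at FOXC1 and 8.28 at FOXP1 to 16.2 at FOXB1 (1), and 2 had a K120R peak (40.0%, 5.27 to 85.3). The 6 homeobox and paired box REs had a median of 8.78. The lowest WT peaks over any of the REs were at PAX5, a B-cell factor (3.12), and NKX2-2 (4.04), and 1 of the 6, UNCX (10.7 WT, 7.71 K120R), had a K120R peak (16.7%, 0.421 to 64.1). Each of these families held 1 RE of 16.2 or more, FOXB1 (1) and LHX8 (2).

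Of the 5 bHLH REs (20.0%, 0.505 to 71.6), that of BHLHE40 alone had a K120R peak (12.1 WT, 9.28 K120R), while HES2 (16.4), TFAP4 (15.3), EPAS1 (2) (10.3) and EPAS1 (1) (4.61) had none. EPAS1 encodes a hypoxia-inducible factor, and both of its REs lay in introns of PRKCE, 121175 and 285107 bp from its start. Of the 4 bZIP REs, ATF3 (2) and FOSL1 had K120R peaks, and BACH1 (15.1) and ATF3 (1) had none. RFX7 (23.6 WT, 9.60 K120R) had a K120R peak, and RFX1 and RFX3 (14.3) had none. ETV5 had one, and ETV6 (7.20) had none. Neither RUNX1 (14.1) nor RUNX3 (7.88), both with 3 G/C bp, had one.

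Among the 8 other DNA-binding factors 6 had a K120R peak (75.0%, 34.9 to 96.8, beside 40.6% of the list): MYBL1, MTERF, GPBP1 (24.8 WT, 6.11 K120R), ARID3A (16.8 WT, 9.37 K120R), E2F7 (14.6 WT, 11.2 K120R) and SSBP2. HMGA2, a chromatin architecture factor (10.9), and SMAD5, a BMP signal transducer (14.6), had none over the RE. A K120R peak of 6.97 stood beside the SMAD5 RE, with its summit 162 bp away, and did not overlap it. Of the 4 genes of another kind, LGALS7 (14.7 WT, 9.73 K120R) and ERN2 had K120R peaks, and MIR3692 (9.21) and SNHG16 (7.19) had none.

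**Figure D5:**
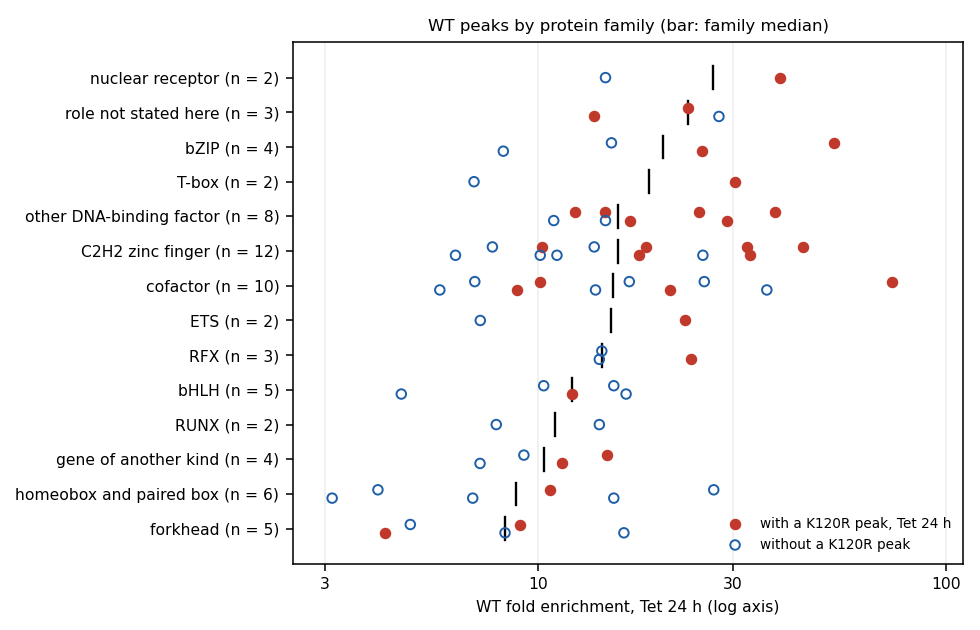
WT fold enrichment with Tet (log axis) of the 68 REs with a WT peak, by protein family of the listed gene, with the number of REs in brackets and a bar at each family's median. Filled points had a K120R peak and open points had none. Forkhead and homeobox REs have the lowest medians (8.28 and 8.78), and WT values span 14.1 to 23.6 in RFX and 5.73 to 73.5 in cofactors.

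REs listed under related labels were read in the same way. Labels of other transcription, chromatin, histone, nucleosome or gene expression functions held 20 REs, all with a WT peak (median 14.1), 8 with a K120R peak (40.0%, 19.1 to 63.9) and 4 with a peak in untreated WT cells. GTF2B, a general transcription factor gene (28.3 WT, 12.4 K120R), and KLF3, a repressor gene with no G/C bp (13.1 WT, 11.7 K120R), had K120R peaks. HDAC9, a histone deacetylase gene with 3 G/C bp (36.9 WT), had none. K120R shares of other labels were 47.0% for metabolism (39 of 83), 38.9% for protein phosphorylation (14 of 36) and 37.6% for REs without an assigned function (88 of 234). The interval of transcription regulators, 32.1 to 56.7, covered all of these.

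On the annotation, 39 of 69 were in introns (56.5%, 57.4% over the list), 25 between genes, 3 in untranslated exons, 2 in exons of noncoding RNAs and none in coding sequence. The gene to which an RE was listed contained it in 24 cases (34.8%, 34.6% over the list), and 9 lay in a protein-coding gene other than the listed one (13%, 17.5% over the list). The median distance to the nearest annotated start of the listed gene was 24331 bp (21310 bp over the 1199 listed REs whose gene was annotated), and 14 REs were over 100 kb away (20.3%, 16.2% over the list), as far as 545276 bp at TLE4.

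A gene start of any kind lay within 1 kb of 8 REs (11.6%, 5.14 to 21.6), beside 15.3% of the list, and within 5 kb of 32 (46.4%, 34.3 to 58.8), beside 38.6%, so the order against the list turned with the distance. For 3 of the 8 it was the start of the listed gene, at ZNF79 (224 bp), E2F7 (507 bp) and ZNF337 (700 bp). That is 4.35% of the 69 REs, beside 8.11% of the list. The others were near starts of other genes, at SNHG16 (66 bp), IRF2BPL (174 bp, the noncoding LINC01629), ZNF322 (749 bp), ZNF596 (955 bp) and ZNF280D (970 bp). Of these 8 REs, 5 had a K120R peak (62.5%, 24.5 to 91.5), and of the other 60 with a WT peak 25 did (41.7%). Over all listed REs the shares were 52.7% and 38.4%. With a −log10 q-value of at least 5 the counts were 3 of 8 (37.5%) and 21 of 59 (35.6%), beside 41.5% and 32.5% of the list at that threshold, since ZNF322 and ZNF79 lost their K120R peaks. With a −log10 q-value of at least 10 they were 2 of 8 and 14 of 56 (both 25.0%), beside 30.7% and 22.6% of the list. K120R peaks over the 8 REs included the weakest of all, at ZNF322 (4.07) and ZNF79 (4.69).

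Peak summits lay close to the REs. The median distance from the centre of the RE to the WT summit was 13 bp (12.5 bp over the list), and it was over 100 bp at 2 REs, ERN2 and HMGA2 (104 bp). K120R summits lay a median of 40.5 bp away (24.5 bp over the list), and over 100 bp at ERN2, ZNF79 (168 bp) and ZNF280D (116 bp).

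Other p53 peaks were found within 50 kb of some REs. A further WT peak lay in that window of 14 REs (20.3%, 23.9% over the list) and a further K120R peak in that of 12 (17.4%, 15.4% over the list). The 2 FOXB1 REs were each other's neighbours, with the WT summit over FOXB1 (1) 45132 bp from the centre of FOXB1 (2). At MYBL1 a K120R peak of 14.4 stood 7303 bp from the RE, higher than the K120R peak over the RE itself (11.1), where the WT list had a peak of 5.74. At ZNF322 a peak with its WT summit 18182 bp away, and with 6.45 in untreated WT, 29.2 in WT with Tet and 12.4 in K120R cells, was stronger with Tet in both lines than that over the RE, which had no peak in untreated cells.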

How the data were processed

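p53 ChIP-seq was available for 1 library in each of 4 conditions. Per the methods, the authors aligned uniquely mapping 75-bp reads to GRCh37 with BWA-MEM. Per the file headers, MACS 2.1.1.20160309 was run on each ChIP library beside an input library, with a q-value cutoff of 0.05. The deposited pileup is the signal at the summit. Fold enrichment, as deposited, divides that height by the local background (a ratio). The deposited p-value and q-value are on the −log10 scale. No value was normalized again, and narrow-peak and summit lists were not used.

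REs, their sequences and labels came from the study's source data, whose own occupancy values were not used. The REs and gene families were chosen with earlier results of these data known. An RE had a peak when at least 1 bp overlapped, and of several peaks the one with the largest fold enrichment was taken. Listed starts were read as counted from 0. G/C bp and mismatches were counted on the 20-bp sequence, and neither depends on the strand. For ZNF219 the listed span is 1 bp short and its sequence did not match GRCh37 there. Positions came from GENCODE release 44 lifted to GRCh37. Shares carry exact Clopper-Pearson 95% intervals (scipy 1.17.1). Groups came from the sample titles. Libraries held 33059650, 33531162, 34151544 and 34857204 ChIP tags (WT untreated, WT with Tet, K120R untreated, K120R with Tet). Overlap counting and intervals were tested on simulated data. Alternatives covered peak thresholds, overlap, label spelling, repeated sequences and genes, and peaks of untreated cells. REs named with values were those with the 10 strongest WT, K120R and untreated WT peaks, the 5 strongest WT peaks without a K120R peak, REs without a WT peak, REs with 0 or 4 G/C bp, those of genes with 2 REs, pairs within 2 bases, REs within 1 kb of a gene start, and others by family.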

Additional observations from a re-analysis of the deposited data

How the results depend on the processing

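Of 83 values recomputed under 12 alternatives, 78 stayed close to the reported value. Close meant within the interval of a share or median, or within 1.5 times a count, ratio or difference. By this rule the ratio of median WT fold enrichments, 1.78 as reported, still counted as close at 1.25 and 1.35. Lone counts, shares and medians have no direction that could change. The order against the list was not among these values. It turned for the share of REs near gene starts with the distance. For the K120R share near gene starts it turned at a −log10 q of at least 5. Requiring a −log10 q of at least 10 left, among the 64 REs that kept a WT peak, 16 with a K120R peak and 7 with a WT peak in untreated cells. Leaving out peaks of Tet-treated cells that overlapped a peak of untreated cells of the same line left 19 with a K120R peak. The 15 REs with a WT peak in untreated cells then had no WT peak by construction, so the count of WT peaks in untreated cells has no value there. Median pileup over the REs was 65.4, on another scale than fold enrichment. A gene start lay within 5 kb of 46.4% of the REs, beside 38.6% of the list, and this distance does not bear on the share in introns. Of the 30 REs with a K120R peak, 16 kept it under all 5 settings of threshold, summit and overlap, and 14 lost it under at least 1. ZNF322 and ZNF79 kept the peak under 1 of the 5, and ZNF280D under 2. MSANTD1 and WT1, named in the pairs of near-identical REs, lost it at a −log10 q of at least 5. The pairs of MSANTD1 with NR1I2, TFAP4 and LHX8 (2), and of WT1 with LHX8 (2) and TFAP4, then no longer differed. MYBL1, which kept its K120R peak, then differed from both MSANTD1 and WT1. Besides ESR1 with MED13, each pair that differed at that threshold held MYBL1. The K120R share near gene starts was recomputed at a −log10 q of at least 5 and of at least 10, alternatives chosen after seeing the data. Leaving out a library was not possible with 1 per condition, and no test was run. No paired analysis was possible because each condition had 1 library. Where an RE had no peak, p53 was not detectable at this depth, which does not show that it was absent.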
